A study of Homo sapiens with 6 samples.

Results

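Mitosis and G2/M genes encode the proteins that carry a cell from the end of DNA synthesis through chromosome segregation to cytokinesis. The list held 44 such genes, and each was represented on the array by the probe set that carries its symbol and has the highest mean over the 6 arrays. All 44 were measured, among 19775 genes in all. Gene expression had been profiled in MDA-MB-231, an established, highly invasive line of triple-negative human breast cancer. The knockdown group consisted of 3 single clones carrying a retroviral short hairpin RNA against WASF3, and the control group of 3 single clones carrying either empty pSM2 vector or a hairpin against GFP. All 6 clones were puromycin resistant, selected for 2 weeks at 1.0 μg/ml, grown with 10% fetal bovine serum and labelled as passage 4. Which of the 2 hairpins or of the control vectors each clone carried is not given in the sources at hand. Each clone was read on 1 array, so a group is 3 independent clones of 1 line, and a clone on its own has no replicate. The comparison asked which of these genes change when WASF3 is depleted. All values are log2 signals, and differences are knockdown minus control unless a single clone is named.

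Entry into mitosis is driven by CDK1 bound to cyclins A and B, held back by the kinase WEE1 and released by CDC25 phosphatases. Polo and aurora kinases then build the spindle, the spindle checkpoint withholds anaphase until kinetochores are attached, and the anaphase-promoting complex ends mitosis by degrading cyclin B and securin. Transcripts of these genes rise together in G2, under the factors FOXM1 and MYBL2 and the MuvB complex, and are low in cells that have left the cycle. They are therefore widely read as a sign of how many cells in a culture divide. In bulk RNA, fewer cells in G2 and mitosis and less of the RNA in each such cell cannot be told apart.

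The genes of the list shared promoter elements that played no part in how they were chosen. The cell cycle homology region, the site bound by MuvB, is written TTTGAA or TTCGAA, and the CCAAT box is bound by NF-Y. RefSeq promoters (GRCh38.p14, 250 bases before to 50 after the annotated start, the first listed start of a gene, both strands searched) were at hand for 35 of the 44 members. Of these, 25 (71.4%) held TTTGAA or TTCGAA, against 16.6% of the 27305 genes with a promoter and 13.5% of the 15843 that are protein-coding. A CCAAT box stood in 26 (74.3%), against 35.7% and 36.4%, and both stood in 21 (60.0%), against 6.58% and 5.57%. The CCAAT box was not particular to the members among cell cycle genes. In 8 other cell cycle lists its share ran from 35.3% (anaphase-promoting complex) to 68.8% (CDK inhibitors and arrest genes), with 59.4% for DNA replication and G1/S genes. Within 50 bases of the start, 21 members (60.0%) had the homology element, against 5.05% of all genes. The stretches below, from 150 bases before to 10 after the start, belong to the 4 members with the smallest unadjusted p in the comparison among those with a promoter at hand that held an element. Capitals mark the homology element and the CCAAT box, which reads ATTGG where it lies on the other strand. They lie at chr2:168890421-168890580 on the minus strand for SPC25, chr2:110678054-110678213 on the minus strand for BUB1, chr12:53268149-53268308 on the plus strand for ESPL1 and chr15:69414199-69414358 on the plus strand for KIF23.
SPC25: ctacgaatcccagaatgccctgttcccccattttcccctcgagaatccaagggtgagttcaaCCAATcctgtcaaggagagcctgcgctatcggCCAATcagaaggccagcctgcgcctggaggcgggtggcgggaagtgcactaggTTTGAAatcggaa
BUB1: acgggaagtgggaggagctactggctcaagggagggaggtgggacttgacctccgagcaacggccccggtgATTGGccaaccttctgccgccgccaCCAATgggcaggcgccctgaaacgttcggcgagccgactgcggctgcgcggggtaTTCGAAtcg
ESPL1: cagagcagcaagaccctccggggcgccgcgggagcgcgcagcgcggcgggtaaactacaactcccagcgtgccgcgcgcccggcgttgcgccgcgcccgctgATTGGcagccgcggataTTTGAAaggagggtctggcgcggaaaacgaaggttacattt
KIF23: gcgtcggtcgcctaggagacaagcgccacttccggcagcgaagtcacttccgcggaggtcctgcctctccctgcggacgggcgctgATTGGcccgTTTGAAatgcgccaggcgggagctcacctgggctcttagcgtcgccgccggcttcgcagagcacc
In each of the 4 a homology element lies downstream of a CCAAT box. Its first base is at −3 from the start in SPC25, at 2 in BUB1, at −31 in ESPL1 and at −55 in KIF23. A second TTTGAA of SPC25, at −247, is outside the stretch printed. A match of 6 letters is a description of the sequence and is not shown to be bound in these cells.

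**Figure D1:**
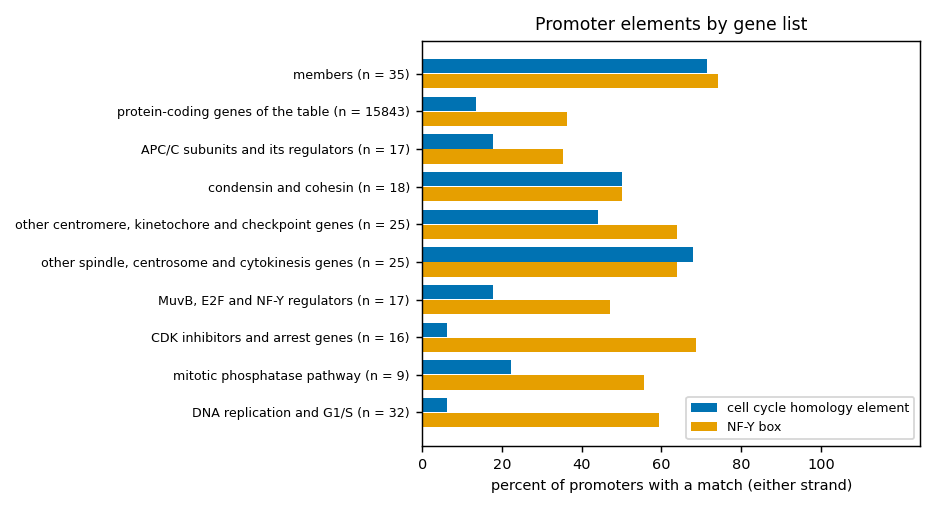
Percent of promoters with at least 1 match to the cell cycle homology element (blue) or to the NF-Y box (orange), for the 35 members with a promoter at hand, for all protein-coding genes and for 8 other cell cycle lists. The blue bar of the members stands at 71.4% against 13.5% for protein-coding genes and 6.25% for DNA replication and G1/S genes, while other spindle, centrosome and cytokinesis genes reach 68%, condensin and cohesin genes 50% and other centromere, kinetochore and checkpoint genes 44%. The orange bar stands at 74.3% for the members, 36.4% for protein-coding genes and 35.3% to 68.8% in the 8 other lists.

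The arrays did not stand equally close to each other. Control clones correlated at 0.998 over all tested probe sets, knockdown clones 1 and 2 with controls at 0.991 to 0.992, and knockdown clone 3 with every other array at 0.984 to 0.987. The WASF3 signal was below every control in each knockdown clone, with 43.8%, 57.5% and 23.8% of the control mean in clones 1, 2 and 3, a change of −1.35 (SE 0.29) that missed the threshold in limma (adjusted p = 0.102). The 3′ minus 5′ index of the GAPDH and ACTB control probe sets, which rises as RNA degrades, was 2.11, 1.62 and 1.66 in knockdown clones and 1.13, 1.47 and 1.26 in control clones. Its part in the results was not tested beyond the fit with the index as a covariate, in which the median change of the members was 0.03. That fit called 1 gene of all 19775 and 0 members, so its count tells nothing about the members. Markers of the line were present (VIM 14.3, CD44 11.8, EGFR 10.3, CAV1 12.4 and ZEB1 9.83 in control clones), while SPARC read 4.87 and the hormone receptors ESR1 and PGR 5.89 and 3.31. The summed log2 level of 11 leukocyte markers was 49.6 to 50.6 in knockdown and 50.9 to 51.9 in control clones. Single leukocyte markers read from 3.20 (PTPRC) to 6.32 in controls. The summed level of 8 fibroblast and endothelial markers was 40.9 to 41.9 and 41.7 to 42.0. The summed level of 8 luminal markers was 49.3 to 55.1 and 51.2 to 52.2, and that of the 6 markers of the line 63.2 to 63.4 and 63.2 to 63.6. Luminal markers were not all low: they read from 3.31 to 11.6 in controls, and 6 of the 8 had a mean above 5. Their differences from the control mean ran from −0.19 to 2.39 in clone 1, −0.50 to 1.19 in clone 2 and −0.67 to −0.06 in clone 3. Of the 33 markers measured 0 were called in limma, and 5 had an unadjusted p under 0.05. Among all genes 9.11% had such a p with higher values and 7.67% with lower values, so the markers stood near the share of all genes. The part of these lists in the results was not tested.

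With all 3 knockdown clones, none of the 44 genes differed from the controls beyond the threshold. In limma 0 rose and 0 fell at an adjusted p under 0.05 over all probe sets, where 0.319% of all genes were called higher and 0.42% lower. With no adjustment of p, 6 passed 0.05 with higher values (CDK1, AURKB, BUB1, BUB3, KIF23 and TOP2A; 13.6%, against 9.11% of all genes) and 2 with lower values (ESPL1 and SPC25; 4.55%, against 7.67%). Means were higher for 28 members and lower for 16, with a median change of 0.06 that ran from −0.80 to 0.71, beside −0.01 over all genes. The 2 groups did not overlap for 9 members with higher knockdown values (20.5%, against 12.1% of all genes) and for 2 with lower values (4.55%, against 12.6%).

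The clones themselves were far apart. Members lay mostly above the controls in knockdown clones 1 and 2 and mostly below them in knockdown clone 3. The median difference from the control mean was 0.19 in clone 1, 0.37 in clone 2 and −0.30 in clone 3, while the medians over all genes were 0.00, −0.02 and −0.02. In clone 1, 34 of 44 members were above the control mean (77.3%, against 50.6% of all genes). In clone 2, 40 were above it (90.9%, against 47.3%), and in clone 3, 34 were below it (77.3%, against 53.3%). With each array centred on its median over probe sets with a mean above 5, the clone medians were 0.16, 0.31 and −0.31.

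Size of difference followed the same order. At least 1.5-fold above the control mean were 1 member in clone 1 (2.27%; 3.27% of all genes and 4.47% of those with a mean log2 signal above 5), 11 in clone 2 (25%; 4.67% and 6.5%) and 0 in clone 3 (5.3% of all genes). At least 1.5-fold below it were 0 in clone 1 (2.58% of all genes), ESPL1 alone in clone 2 (2.27%; 2.49%) and 11 in clone 3 (25%; 5.52% and 7.9%). The 11 that were high in clone 2 were CDK1, AURKB, BUB1, BUB3, TTK, NUF2, KIF11, DLGAP5, KIF23, ANLN and TOP2A, of which TOP2A was also the member counted in clone 1. Those low in clone 3 were CDC25B, CDC20, ESPL1, CENPF, NDC80, KIF2C, KIF4A, HMMR, KIF20A, RACGAP1 and FOXM1. The genes high in clone 2 and those low in clone 3 had none in common. At 2-fold, 0 members were higher in clone 1 (0.501% of all genes), TOP2A alone was higher in clone 2 (2.27%; 0.845%) and ESPL1 alone was lower in clone 3 (2.27%; 1.75%).

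**Figure D2:**
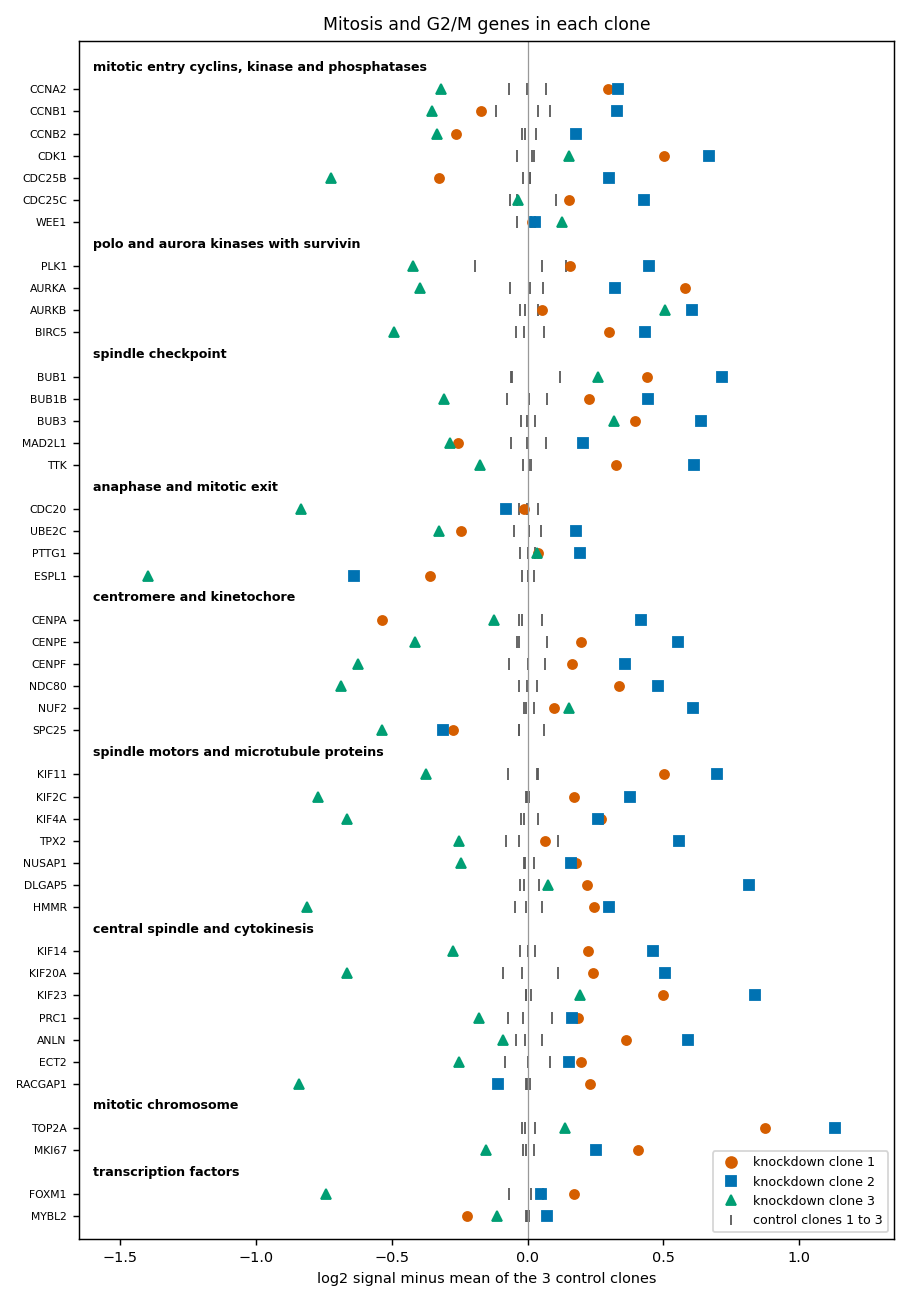
Log2 signal of each of the 44 members in every clone, minus the mean of the 3 control clones, with genes grouped by role. Knockdown clones 1 (circles), 2 (squares) and 3 (triangles) are set beside the control clones (grey ticks), whose range has a median of 0.08. Triangles lie left of 0 for 34 genes and squares right of it for 40.

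Knockdown clone 3 was below the mean of clones 1 and 2 for 42 of 44 members (95.5%), against 51.0% of all genes and 53.1% of those with a mean above 5. AURKB and WEE1 were the exceptions. The gap had a median of −0.57 and ran from −1.09 in NDC80 to 0.18 in AURKB, while its median was −0.02 for genes with a mean above 5, of which the middle part from the 5th to the 95th percentile spanned −0.80 to 0.65. Clone 3 gave the lowest of the 6 values for 31 members (70.5%, against 25.9% and 29.1%). For 20 members (45.5%) clone 3 was below every control clone and clones 1 and 2 were above every one, which held for 6.45% of all genes and 8.82% of those with a mean above 5. The opposite arrangement held for 0 members and 4.34% of all genes. The SD over clones had a median of 0.38 in knockdown and 0.04 in control clones for the members, and of 0.16 and 0.08 for all genes. The members move together within a clone, so they are 44 readings of 3 clones and not separate replicates, and no test of a clone on its own was made.

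**Figure D3:**
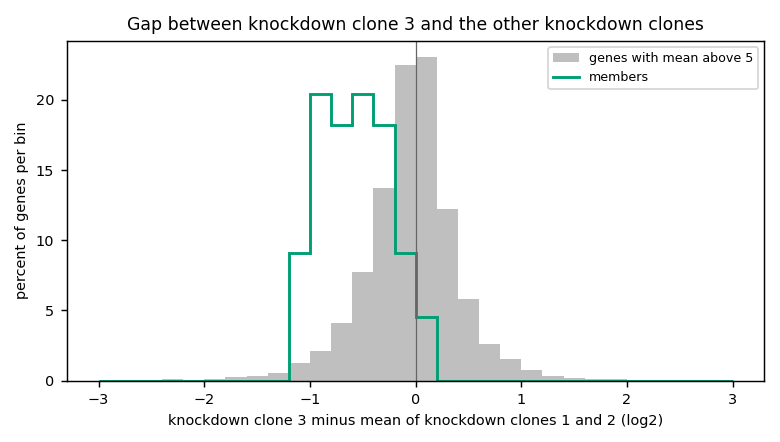
Distribution of the gap between knockdown clone 3 and the mean of knockdown clones 1 and 2, in log2 units, as percent of genes in each bin (gaps beyond 3 are placed in the outermost bin). The line shows the 44 members, with a median of −0.57, and the filled bars show 13043 genes with a mean above 5, with a median of −0.02.

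Among regulators of mitotic entry, CDK1, the kinase that drives entry, read 11.23, 11.39 and 10.88 in knockdown clones 1, 2 and 3 and 10.74, 10.69 and 10.75 in control clones 1, 2 and 3. All knockdown values were above all control values, with clone 3 the nearest, and the change was 0.44 (SE 0.14, limma adjusted p = 0.212). Its other bright probe sets did not share this: they gave −0.03 and −0.08, with clone 1 at −0.51 and −0.60, and the mean over all CDK1 probe sets gave a change of 0.10. The cyclins were split by clone. CCNA2, cyclin A2, lay 0.30, 0.33 and −0.32 from the control mean in clones 1, 2 and 3. CCNB1, cyclin B1, lay −0.17, 0.33 and −0.35 away, and CCNB2, cyclin B2, −0.26, 0.18 and −0.33. On these brightest probe sets both B cyclins were above the controls in clone 2 only. A second bright CCNB1 probe set gave 0.43, 0.43 and −0.39, with clone 1 above the controls too. CDC25B, a phosphatase that activates CDK1, ranged most in this role, with differences of −0.32, 0.30 and −0.72. The related CDC25C gave 0.15, 0.43 and −0.04. WEE1, the kinase that restrains CDK1, varied least of all members: 9.33, 9.34 and 9.44 in knockdown and 9.27, 9.33 and 9.34 in control clones. Its groups overlapped and its change was 0.06 (SE 0.08, limma adjusted p = 0.828).

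AURKB, the aurora kinase of the chromosomal passenger complex, differed from most members in being high in clone 3. It read 9.31, 9.86 and 9.76 in knockdown and 9.23, 9.25 and 9.30 in control clones, so clones 2 and 3 stood well above the controls and clone 1 just above them. The change was 0.39 (SE 0.15, limma adjusted p = 0.298), and without clone 1 it was the 1 member called (0.55, limma adjusted p = 0.0367, against 1.94% of all genes called higher). A dimmer AURKB probe set, named after its value was seen, was the 1 of 87 member probe sets called with all clones (0.80, SE 0.11, limma adjusted p = 0.0430). It did not share the clone pattern: it lay 0.71, 1.01 and 0.67 from the control mean, with clone 1 well above the controls and clone 3 below the mean of clones 1 and 2. BIRC5, or survivin, is a partner of AURKB in that complex and lay 0.30, 0.43 and −0.49 from the control mean. AURKA, the aurora kinase of the spindle poles, lay 0.58, 0.32 and −0.39 away, and PLK1, the polo-like kinase, 0.15, 0.45 and −0.42. BIRC5, AURKA and PLK1 were above the controls in clones 1 and 2 and below them in clone 3.

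The spindle checkpoint held the member with the smallest p. BUB3, the adaptor that brings BUB1 and BUBR1 to kinetochores, read 12.20, 12.44 and 12.12 in knockdown and 11.83, 11.80 and 11.78 in control clones. Every knockdown clone was above every control, clone 2 the furthest, with a change of 0.45 (SE 0.11, limma adjusted p = 0.120), and 5 of its 6 probe sets had this sign. BUB1, a checkpoint kinase, read 10.18, 10.45 and 10.00 against 9.68, 9.68 and 9.86, again without overlap and with clone 2 the highest, for a change of 0.47 (SE 0.13, limma adjusted p = 0.174). Of the 5 BUB1 probe sets 3 had this sign, the other 4 being far dimmer than the one shown, and the mean over all 5 gave a change of 0.09. BUB1B, which encodes the checkpoint protein BUBR1, lay 0.23, 0.44 and −0.31 from the control mean, and TTK, the kinase MPS1, 0.32, 0.61 and −0.18. MAD2L1, the MAD2 protein that inhibits CDC20, gave −0.26, 0.20 and −0.28 and was above the controls in clone 2 alone. A second bright MAD2L1 probe set gave −1.18, 0.05 and −0.49, with clone 1 the lowest, and a far dimmer one 0.35, 0.33 and 0.10. The median of the 5 checkpoint genes was 0.32, 0.61 and −0.18 in clones 1, 2 and 3.

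Genes of anaphase and mitotic exit were lower than the other roles in clones 1 and 2, with clone medians of −0.13, 0.05 and −0.58. ESPL1, the separase that cuts cohesin, had the largest absolute change of all members. It read 9.99, 9.71 and 8.95 in knockdown and 10.33, 10.37 and 10.35 in control clones, below every control in each clone and lowest in clone 3, where 38% of the control mean was left. The change was −0.80 (SE 0.24, limma adjusted p = 0.201), and the second ESPL1 probe set gave −0.80 as well. CDC20, the activator of the anaphase-promoting complex, was close to the controls in clones 1 and 2 and low in clone 3 (−0.01, −0.08 and −0.84). UBE2C, its ubiquitin-conjugating enzyme, gave −0.25, 0.18 and −0.33. PTTG1, the securin that restrains separase, was among the 2 members with the narrowest range, at 13.18, 13.34 and 13.18 in knockdown and 13.12, 13.17 and 13.15 in control clones. Its knockdown values were above all controls by a small margin in clones 1 and 3, and the change was 0.09 (SE 0.09, limma adjusted p = 0.724).

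In the centromere and kinetochore group, SPC25, a subunit of the NDC80 complex, was lower in every knockdown clone (9.03, 9.00 and 8.77) than in any control (9.28, 9.37 and 9.28), a change of −0.37 (SE 0.10, limma adjusted p = 0.159). NDC80, the microtubule-binding subunit that names the complex, had among the widest ranges of all members. It read 9.97, 10.11 and 8.95 in knockdown and 9.60, 9.67 and 9.63 in control clones, above the controls in clones 1 and 2 and at 62.1% of their mean in clone 3. The third subunit, NUF2, was above the controls in all 3 clones, by 0.10, 0.61 and 0.15. The clone values of these 3 subunits of 1 complex were not in the same order, and none was called. CENPE, a kinetochore motor, gave 0.20, 0.55 and −0.41 and CENPF, a large kinetochore protein, 0.16, 0.36 and −0.63. CENPA, the histone H3 variant of centromeres, was the member lowest in clone 1, with differences of −0.54, 0.42 and −0.12.

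Spindle motors and microtubule proteins had the largest gap between clones of the 9 roles, with a median of −0.93 for clone 3 against clones 1 and 2. All 7 were above the control mean in clones 1 and 2 on their brightest probe set. A second, dimmer KIF2C probe set gave −0.36, 0.40 and −0.87 in clones 1, 2 and 3. KIF2C, a kinesin that depolymerises microtubules, read 10.95, 11.16 and 10.01 in knockdown and 10.78, 10.79 and 10.78 in control clones, which spans the controls on both sides and gave a change of −0.07 (SE 0.27, limma adjusted p = 0.936). HMMR, a spindle protein that also binds hyaluronan, lay 0.25, 0.30 and −0.81 from the control mean, KIF4A, a chromosome-bound kinesin, 0.27, 0.26 and −0.67, and KIF11, the motor that separates spindle poles, 0.50, 0.70 and −0.37. DLGAP5, a kinetochore fibre protein, was the 1 of the 7 above the control mean in clone 3 too. It read 10.33, 10.92 and 10.19 against 10.09, 10.10 and 10.15, with clone 2 far above the rest, and its change was 0.37 (SE 0.18, limma adjusted p = 0.429). TPX2, an activator of AURKA, gave 0.06, 0.56 and −0.25, and NUSAP1, a spindle-bundling protein, 0.18, 0.16 and −0.24.

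Of the central spindle and cytokinesis genes, KIF23, the motor of centralspindlin, read 9.22, 9.55 and 8.91 in knockdown and 8.71, 8.71 and 8.73 in control clones. Its groups did not overlap, clone 2 was the highest, and the change was 0.51 (SE 0.16, limma adjusted p = 0.211), with both probe sets of the same sign. RACGAP1, its partner in centralspindlin, did otherwise: it lay 0.23, −0.11 and −0.84 from the control mean. KIF20A, a kinesin of the central spindle, had the widest range of all members, at 10.33, 10.59 and 9.42 against 10.00, 10.07 and 10.20. The change of KIF20A was 0.03 (SE 0.27, limma adjusted p = 0.981), with 2 clones above and 1 below the controls. KIF14, a kinesin of the midbody, gave 0.22, 0.46 and −0.27, and ANLN, the anillin scaffold of the contractile ring, 0.36, 0.59 and −0.09. PRC1, which bundles midzone microtubules, gave 0.18, 0.16 and −0.18 and ECT2, the exchange factor that activates RhoA in cytokinesis, 0.20, 0.15 and −0.25.

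TOP2A, the topoisomerase that untangles chromosomes, had the largest increase. It read 12.30, 12.56 and 11.56 in knockdown and 11.41, 11.42 and 11.45 in control clones, which is 1.83-fold and 2.19-fold the control mean in clones 1 and 2 and 1.10-fold in clone 3. No knockdown value overlapped the controls on this probe set, but the spread among clones left the change at 0.71 (SE 0.23, limma adjusted p = 0.229). A second bright TOP2A probe set gave 0.67, 0.93 and −0.19, with clone 3 below every control, and a far dimmer one 0.31, 0.96 and 0.38. MKI67, the Ki-67 protein that coats mitotic chromosomes and is the usual proliferation marker, lay 0.40, 0.25 and −0.15 from the control mean. Its other probe sets, nearly as bright, put clone 1 at the controls (−0.05, 0.0013 and −0.03). They had clone 2 at 0.15, 0.33 and 0.48 and clone 3 lower, at −0.78, −0.71 and −0.33. FOXM1, an activator of G2/M genes, read 10.09, 9.97 and 9.17 against 9.85, 9.93 and 9.97, above every control in clone 1, within their range in clone 2 and at 59.7% of their mean in clone 3, for a change of −0.17 (SE 0.23, limma adjusted p = 0.793). MYBL2, the B-MYB partner of MuvB, gave −0.22, 0.07 and −0.11.

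Without knockdown clone 3, 8 members were called. CDK1, BUB1, BUB3, KIF11, KIF23, ANLN and TOP2A rose (7 of 44 or 15.9%, against 3.96% of all genes and 5.78% of those with a mean above 5) and ESPL1 fell (2.27%, against 2.23%). TOP2A rose by 1.00 (SE 0.11, limma adjusted p = 0.00841), KIF23 by 0.67 (SE 0.12, limma adjusted p = 0.0259), KIF11 by 0.60 (SE 0.10, limma adjusted p = 0.0234) and CDK1 by 0.59 (SE 0.10, limma adjusted p = 0.0212). BUB1 rose by 0.58 (SE 0.12, limma adjusted p = 0.0397), BUB3 by 0.52 (SE 0.10, limma adjusted p = 0.0375) and ANLN by 0.48 (SE 0.10, limma adjusted p = 0.0468), and ESPL1 gave −0.50 (SE 0.11, limma adjusted p = 0.0470). The other 36 members did not pass, and before adjustment 24 of the 44 passed 0.05 with higher values (54.5%, against 13.9% of all genes) and 2 with lower values (4.55%, against 10.3%). The median change of the members was 0.30 in this fit. For KIF11 and ANLN the value of clone 3 lay on the other side of the control mean (−0.37 and −0.09), whereas for the other 6 called genes it had the same sign as in clones 1 and 2. These calls and signs are those of the brightest probe set of each gene, and a second bright TOP2A probe set had clone 3 at −0.19. The other bright CDK1 probe sets did not share the rise in both clones. They had clone 1 at −0.51 and −0.60, clone 2 at 0.46 and 0.39, and clone 3 at −0.02 and −0.04. This fit compares 2 clones with 3, and the clone left out had the least WASF3 signal. It was 23.8% of the control mean in clone 3, against 43.8% and 57.5% in clones 1 and 2. The part of the WASF3 level in these calls was not tested. Whether clone 3 differs from clones 1 and 2 was not tested, since it is 1 clone.

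**Figure D4:**
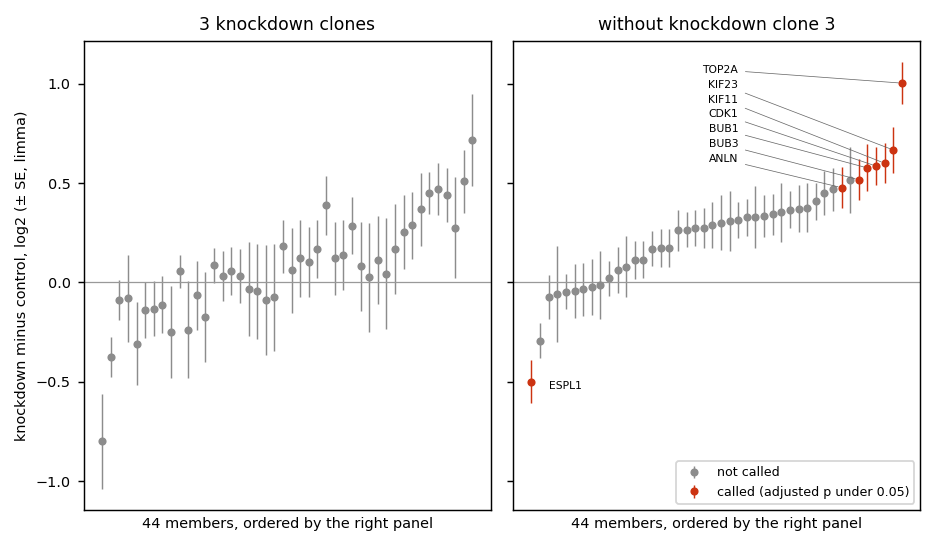
Knockdown minus control for the 44 members, in log2 units (bars, limma standard error), with all 3 knockdown clones (left) and without knockdown clone 3 (right), genes in the same order. Called genes are red: 0 on the left and 8 on the right, where TOP2A stands highest at 1.00 and ESPL1 lowest at −0.50.

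Other probe sets of the same genes gave the clone pattern more often than the sign of the change. The 44 genes had 87 probe sets, and 23 genes had more than 1. All probe sets of a gene shared the sign of the change in 8 of these 23, and the sign of the gap between clone 3 and the other knockdown clones in 15. Of 79 member probe sets with a mean above 5, clone 3 was below the mean of clones 1 and 2 on 70. These 79 include the brightest probe set of each of the 44 genes, on which it was below for 42. Among all genes with a mean above 5, read on 1 probe set each, the share was 53.1%. CCNB1 is an example: its second probe set lay 0.43, 0.43 and −0.39 from the control mean, so clone 1 was above the controls there and below them on the brightest probe set.

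The gap between clones was also set beside the promoter sequence, as a description. The 25 members with TTTGAA or TTCGAA had a median gap of −0.48 (−1.09 to −0.06), and the 10 members with a promoter but no such match −0.53 (−1.05 to 0.18). The clone medians were 0.22, 0.42 and −0.27 in the former and 0.10, 0.35 and −0.34 in the latter.

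The rest of the pathway was followed in 8 lists of 186 other genes, of which 179 were measured. In limma 0 rose and 2 fell: RFC2, a clamp loader subunit of the replication machinery (9.68, 9.71 and 9.35 in knockdown and 10.41, 10.29 and 10.45 in control clones, −0.80 (SE 0.12, limma adjusted p = 0.0458)), and the G1 kinase CDK4 (10.88, 11.03 and 11.08 against 11.62, 11.55 and 11.59, −0.59 (SE 0.09, limma adjusted p = 0.0491)). Among all genes 0.319% were called higher and 0.42% lower. Neither of these calls was made with the RNA index as a covariate, with the intensity trend, with the replicate block, without any 1 control clone or without knockdown clone 2. The fit with the trend called 79 of all genes, against 146 in the main fit. The others called 1 to 20 genes in all, so the loss of the 2 calls there tells nothing about RFC2 and CDK4 in particular. Without clone 3, 30 of the 179 rose (16.8%) and 7 fell, where 3.96% of all genes rose and 2.23% fell. The list medians in clones 1, 2 and 3 were 0.19, 0.30 and −0.36 for 38 DNA replication and G1/S genes, of which 10 rose and 3 fell without clone 3. For 27 other spindle, centrosome and cytokinesis genes they were 0.18, 0.38 and −0.13 (6 rose and 1 fell), and for 29 other centromere, kinetochore and checkpoint genes 0.15, 0.26 and −0.20 (5 rose and 1 fell). For 20 condensin and cohesin genes they were 0.17, 0.35 and −0.18 (3 rose, 0 fell), and for 20 MuvB, E2F and NF-Y regulators 0.30, 0.25 and −0.24 (4 rose, 1 fell). The medians in clones 2 and 3 lay nearer to 0 for 16 genes of the anaphase-promoting complex and its regulators (0.15, 0.15 and −0.06), 17 CDK inhibitors and arrest genes (0.03, 0.06 and −0.07) and 12 genes of the mitotic phosphatase pathway (0.15, −0.02 and −0.12).

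With all clones, the genes with the smallest p of these lists were the following, none of them called. MIS12, a kinetochore subunit, gave 0.63 (SE 0.11, limma adjusted p = 0.0679) and CENPC, a centromere protein, 0.29 (SE 0.11, limma adjusted p = 0.301). TUBG1, the gamma-tubulin of centrosomes, gave 0.49 (SE 0.12, limma adjusted p = 0.139) and NDE1, a dynein regulator, −0.61 (SE 0.12, limma adjusted p = 0.0819). The cohesin regulator PDS5A and the condensin II subunit NCAPD3 read 0.48 and 0.33. Subunits CDC27 and CDC16 of the anaphase-promoting complex read 0.49 and 0.33. TFDP2, a dimerisation partner of E2F factors, gave −0.76 (SE 0.14, limma adjusted p = 0.0684), E2F5 0.87, cyclin G1 (CCNG1) 0.81 and the CDK inhibitor CDKN2D −0.38. The phosphatase subunits PPP2R2D and PPP1CB read 0.34 and 0.56.

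**Figure D5:**
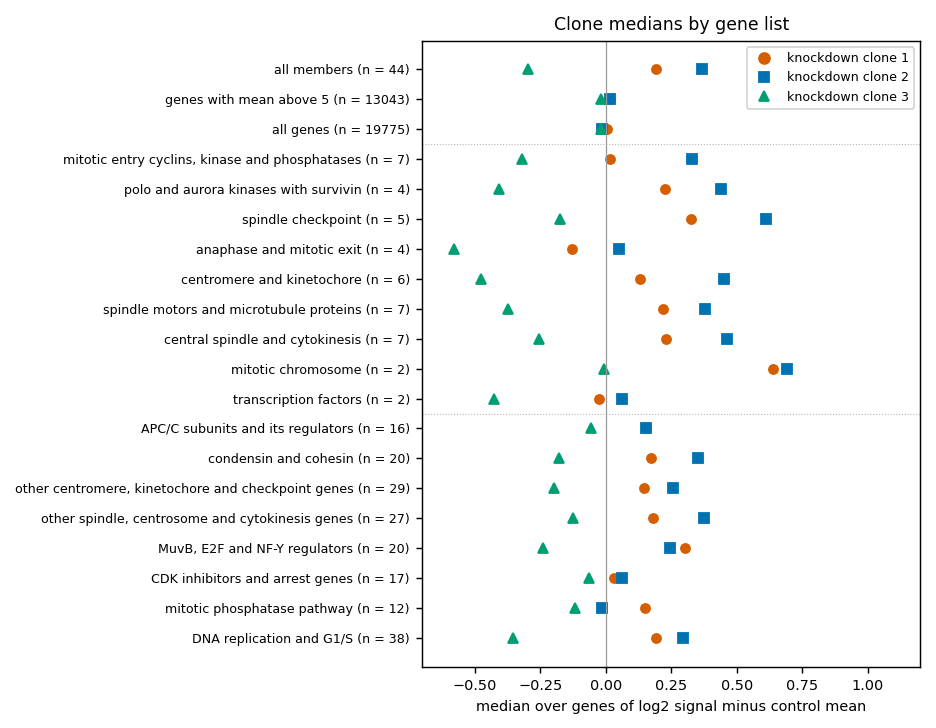
Median difference from the control mean in knockdown clones 1 (circles), 2 (squares) and 3 (triangles), in log2 units, for all members, 2 backgrounds, the 9 roles of the members and 8 other cell cycle lists. For all members the medians are 0.19, 0.37 and −0.30, and for all genes 0.00, −0.02 and −0.02.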

How the data were processed

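Per the labels' protocols, total RNA of each clone was labelled with biotin (3′ IVT Express) and hybridised to an Affymetrix array. The deposited table holds log2 values that the authors produced by RMA. The submitters' processing notes name Affymetrix Expression Console 1.0 as the software. As RMA gives every array the same distribution, it hides any shift common to most genes. The table has 54675 probe sets and 6 arrays, all mapped to a clone. Their number, 3 per group, limits the precision.

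Probe sets were named from the platform annotation where it gives 1 symbol, updated by gene identifier through RefSeq (GRCh38.p14): 41091 had 1 symbol, 1801 several and 11721 none, beside 62 control probe sets left out. A gene was read from its probe set with the highest mean. limma 3.58.1 (lmFit and eBayes, R 4.3.3, group as the only term, two-sided) was fitted to all 54613 probe sets with Benjamini-Hochberg adjustment over them, and a gene was called under 0.05. The procedure was tested on simulated data. Single clones were described without a test. The members, the lists and the alternatives (clones left out, block, covariate, weights, trend, scaling, probe set rules, low filter) were chosen with earlier results of these data known. Per-array values are given for the 8 members with the smallest p, the 3 with the widest and 2 with the narrowest knockdown range, and the largest change of each role. For each other list the text names its called genes or, with none, the 2 with the smallest p. Replicate numbers are taken as names only.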

Additional observations from a re-analysis of the deposited data

How the results depend on the processing

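The count of called members was 0 in 11 of 14 alternatives. It was 3 with array weights (TOP2A, BUB3 and KIF23; 3.61% of all genes were called there), 0 to 8 when 1 clone was left out (8 without knockdown clone 3, 1 without knockdown clone 1, 0 without any other clone), and 0 with the replicate block, under which 3 genes of the array were called. The array weights were 0.51, 0.97 and 0.34 for knockdown clones 1, 2 and 3 and 1.65 to 2.09 for control clones, so knockdown clone 3 counted least there. TOP2A, BUB3 and KIF23 were also called without knockdown clone 3. Of all genes 6.19% were called without knockdown clone 3 and 3.58% without knockdown clone 1. Only 0.101% were called without knockdown clone 2 and 0.0101% to 0.0152% without a control clone. With so few calls, the counts of 0 there tell nothing about the members. Same-numbered clones shared only a number: the correlations of their deviations from the group means were −0.05, −0.08 and −0.04. The median change ran from −0.07 (without knockdown clone 2) to 0.30 (without knockdown clone 3). The 2 called genes of the other lists became 0 with the RNA index as covariate, the intensity trend or the replicate block, 1 without probe sets ending _x_at or _s_at, 5 with the mean of all probe sets, 10 with array weights, and 0 to 37 with 1 clone left out. WASF3 passed with array weights (−1.16, limma adjusted p = 0.0359) and without knockdown clone 3 (limma adjusted p = 0.0175); with 1 clone left out the change ran from −1.63 to −0.99.

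Clone medians kept their sign. Clone 1 gave 0.13 with the mean of all probe sets, 0.16 with centring and 0.18 to 0.22 with a control left out. Clone 2 gave 0.31 with centring and 0.44 without _x_at and _s_at, clone 3 −0.33 when probe sets were averaged. Members at least 1.5-fold higher in clone 1 (1) became 2 without _x_at and _s_at and 1 to 2 with a control left out, and those lower (0) became 1 without _x_at and _s_at. Those higher in clone 2 (11) became 6 with centring, those higher in clone 3 (0) became 1 with the mean of all probe sets, and those lower in clone 3 (11) became 7 without _x_at and _s_at. At 2-fold the counts were 0 higher in clone 1 (0.501% of all genes), 1 higher and 0 lower in clone 2 (0.845% and 0.673%) and 1 lower in clone 3 (1.75%). The gap of clone 3 to clones 1 and 2, under alternatives chosen after seeing the data, was −0.63 with the mean of all probe sets and −0.46 without _x_at and _s_at. That last setting left 35 members. Of 208 fits of the named members, 187 kept sign and side of the threshold, 10 passed it and 11 reversed. Some that kept their sign moved by over 1.5 times. With the RNA index ESPL1 gave −1.30, AURKB 0.78, DLGAP5 0.58 and FOXM1 −0.57. With the mean of all probe sets BUB1 gave 0.09, CDK1 0.10 and AURKB 0.59, without _x_at and _s_at BUB3 gave 0.74 and TOP2A 0.47, with array weights FOXM1 gave −0.06, and without knockdown clone 2 DLGAP5 gave 0.15. KIF20A gave −0.19 and NDC80 −0.27 with the RNA index, KIF20A −0.0076 with centring and KIF2C 0.11 with array weights. With 1 clone left out KIF20A ran from −0.21 to 0.37, NDC80 from −0.17 to 0.41, KIF2C from −0.30 to 0.27 and FOXM1 from −0.35 to 0.11. Beyond the settings that use fewer clones, the cause was not tested.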

Other observations

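Several cell cycle genes outside the mitotic list lay further from the controls in knockdown clone 3 than any member other than ESPL1. The 6 described here were picked after their values were seen, with no fixed rule. CCNE2, a G1/S cyclin, lay 0.85, 0.64 and −1.59 from the control mean in clones 1, 2 and 3, and RRM2, a subunit of ribonucleotide reductase, 0.74, 0.63 and −1.24. Both were above the controls in clones 1 and 2 and below them in clone 3. ORC1, the large subunit of the origin recognition complex, gave 0.36, 0.40 and −1.27. In the opposite direction, RBL2, the pocket protein p130 of the complex that represses cell cycle genes in resting cells, lay 0.50, 0.60 and 1.62 away, E2F5 0.43, 0.73 and 1.45, and CCNG1, cyclin G1, 0.48, 0.83 and 1.12. These 3 were above the controls in every knockdown clone and highest in clone 3. Of these 6 genes 0 were called with all clones in limma, where 0.319% of all genes were called higher and 0.42% lower. RBL2, E2F5 and CCNG1 had an unadjusted p under 0.05. Among all genes 9.11% had such a p with higher values and 7.67% with lower values. Without clone 3, 5 of them were called, all but ORC1, in a fit that called 6.19% of all genes. As the 6 were picked by their values, these counts tell nothing about cell cycle genes as a group. Not every gene this far away had either pattern. CDCA8, of the other centromere, kinetochore and checkpoint genes, gave −0.13, −0.08 and −1.18, below the control mean in every knockdown clone.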
